A study of Mus musculus with 13 samples.

Results

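Ribosomal protein pseudogenes were followed as a group of 60 genes among the 25965 rows of the expression table: every row whose symbol began with Rpl or Rps and contained "-ps". The rule uses the symbol and no measured value, but it was set with earlier results of these data known. Each was set beside its parent, the row with the symbol that stands before "-ps". The 60 pseudogenes had 32 parents, all of them in the table. The parents served as reference only. The libraries came from primary mouse embryonic fibroblasts (MEFs) of mid-gestation embryos. The labels describe the cells as carrying the XistΔA allele on 1 X chromosome and a PGK X chromosome as the other. The cells were transduced with a retroviral hairpin and selected in puromycin. Control hairpins were 1 luciferase library (replicate 1) and 2 non-silencing libraries (replicates A and B). Setdb1 hairpins were 1 shSetdb1.6 library (replicate 1) and 2 shSetdb1.4 libraries (replicates A and B). Each of these 6 hairpin and replicate labels occurred without 5-azacytidine (5-aza) and with 24 h of 5-aza begun at day 3, with harvest at day 7, so that 4 groups of 3 hairpin libraries were compared. The labels do not say that libraries with the same replicate label came from 1 culture. A 13th library, with 5-aza and no hairpin named in its label, stood alone and was carried along without a test. Its library name holds PGK, the name of a mouse strain, and the study used a PGK sample to find strain variants. This library may therefore differ from the others in strain as well as in hairpin, which cannot be told apart. Setdb1 is a histone H3 lysine 9 methyltransferase and 5-aza an inhibitor of DNA methylation. According to the study's methods, Setdb1 hairpins were put into cells heterozygous for a gene trap, Setdb1+/gt, and non-silencing hairpins into wild-type cells. The genotype of the luciferase cultures was not given, and the labels give none per library. An effect of the hairpin therefore cannot be told apart from one of genotype or culture. No source used here says that replicates came from separate embryos or cultures, so the p-values measure the spread between these samples only. In bulk RNA, a change in the share of a kind of cell and a change in RNA per cell cannot be told apart either.

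Ribosomal proteins are made in nearly every cell from abundant, short mRNAs. Such mRNAs have often been copied back into the genome by reverse transcription, which leaves intron-less copies, the processed pseudogenes, scattered over the chromosomes. Most lack a promoter of their own, and they resemble the parent mRNA so closely that a short read from one can fit the other. In this table a level is RPM, the reads assigned to a row per M reads of the library. How reads with more than 1 best place were assigned is not given in the sources used here, so a level of a pseudogene or of its parent is uncertain wherever the copies share sequence. The library kit did not mark strand as far as the sources state, so reads from a transcript on the opposite strand cannot be told apart either.

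Sequence likeness was read from the GENCODE M21 transcripts (GRCm38). All 60 rows were matched, 56 by gene identifier and 4 by symbol and overlap. The annotation called 54 of them processed pseudogenes and 1 a transcribed processed pseudogene, while 4 were listed as protein-coding (Rpl10-ps3, Rpl36a-ps1, Rpl9-ps6 and Rps12-ps3) and 1 as an antisense transcript. The last, the row Rpl29-ps3, aligned to its parent over 15 bases only and lay against an exon of Recql5, so its name and its present annotation differ. The other 59 were 89.1 to 100% identical to the parent transcript, with a median of 97.4%. Of all 60, 23 had no stretch of 100 bases, the read length, that occurred without a mismatch in the parent. The sequences of 5 pseudogenes are shown because the results turn on them. Each is a run of 100 bases from the coding part, in the direction of the gene, lower case, with capitals at each base that differs from the parent. Rps24-ps2, Rps2-ps6 and Rps15a-ps1 were among the strongest rises with 5-aza, Rps15a-ps2 followed the hairpin, and Rpl31-ps8 changed with neither. Rps24-ps2 lay on chromosome 3 (chr3:3791898-3791997, plus strand) and differed from Rps24 at 11 of these bases. Rps2-ps6 lay on chromosome 14 (chr14:76237446-76237545, minus strand) and differed from Rps2 at 1. Rps15a-ps1 lay on chromosome 10 (chr10:106192671-106192770, minus strand) with 4 differences from Rps15a, and Rps15a-ps2 on chromosome 19 (chr19:28742452-28742551, minus strand) with 2. Rpl31-ps8, on chromosome 15 (chr15:90764557-90764656, minus strand), was identical to Rpl31, so its line stands for both. None of the 5 overlapped another annotated gene. The runs start at the start codon, except for Rps24-ps2 and Rps24, which start at its 2nd base.
Rps24-ps2: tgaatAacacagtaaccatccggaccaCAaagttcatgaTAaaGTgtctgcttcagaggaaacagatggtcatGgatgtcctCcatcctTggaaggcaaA
Rps24: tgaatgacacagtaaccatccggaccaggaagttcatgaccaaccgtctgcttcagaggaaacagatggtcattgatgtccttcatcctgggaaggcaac
Rps2-ps6: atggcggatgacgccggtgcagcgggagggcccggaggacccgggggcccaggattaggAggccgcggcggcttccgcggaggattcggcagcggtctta
Rps2: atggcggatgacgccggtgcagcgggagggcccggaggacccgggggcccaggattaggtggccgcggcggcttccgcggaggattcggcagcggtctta
Rps15a-ps1: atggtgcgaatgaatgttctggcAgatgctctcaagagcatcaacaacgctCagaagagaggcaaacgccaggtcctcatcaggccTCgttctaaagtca
Rps15a-ps2: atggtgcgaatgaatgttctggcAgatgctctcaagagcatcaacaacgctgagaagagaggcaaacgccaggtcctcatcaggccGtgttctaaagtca
Rps15a: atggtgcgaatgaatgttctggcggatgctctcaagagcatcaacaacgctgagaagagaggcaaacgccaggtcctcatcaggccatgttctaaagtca
Rpl31-ps8: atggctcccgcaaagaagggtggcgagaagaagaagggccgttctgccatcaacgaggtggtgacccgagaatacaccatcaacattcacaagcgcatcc

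Before the results, the libraries themselves were examined. The hairpin libraries held 41.9 to 58.8 M reads, as implied by the value of 1 read, and the library without a named hairpin 20.4 M, so a low level there is less precise. Setdb1, the targeted gene, stood at 42.7 to 46.4 RPM in the 6 control hairpin libraries, at 10.5 to 15.4 RPM in the 6 Setdb1 hairpin libraries and at 47.0 RPM in the library without a named hairpin. All 8 fibroblast markers were read in every group. Macrophage markers, 7 genes, summed to 10.1 to 15.3 RPM over the hairpin libraries and to 113 RPM in the library without a named hairpin. In the hairpin libraries Csf1r had 330 to 494 reads and Cd68 72 to 156, while Emr1 and Tyrobp had at most 4. The summed macrophage, muscle and endothelial markers of the 5-aza libraries overlapped between the 2 hairpins. The summed epithelial markers did not, at 38.1 to 50.9 RPM with control hairpins and 61.5 to 74.4 RPM with Setdb1 hairpins. Krt19 and Krt18 made up nearly all of that sum, while the defining epithelial genes Epcam and Cdh1 had at most 7 and 4 reads.

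The pseudogenes spanned a very wide range of levels. Mean RPM over the 12 hairpin libraries ran from 0.00166 for Rpl29-ps3, whose highest library held 1 read, to 336 for Rpsa-ps2, with a median of 2.96. It was under 0.1 RPM for 7, from 0.1 to under 1 for 16, from 1 to under 10 for 16, and 10 or more for 21. The 4 highest were Rpsa-ps2, Rps12-ps3, Rpl31-ps8 and Rpl36a-ps1. Rpsa encodes a small-subunit protein also known as the laminin receptor, Rps12 encodes a small-subunit protein, and Rpl31 and Rpl36a large-subunit proteins. A row was tested if 3 or more of the 12 hairpin libraries held it at 1 RPM or higher, which 42 of the 60 did. Of those 42, Rpl21-ps5, Rpl26-ps2, Rpl27a-ps2 and Rps15a-ps1 reached 1 RPM in the 3 control hairpin libraries with 5-aza and in no other hairpin library, and Rpl12-ps1 in those 3 and 2 others. They entered the test through the group in which they were high. Counts over the filtered pseudogenes are for that reason given with those over all 60 from a fit without the filter.

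**Figure D1:**
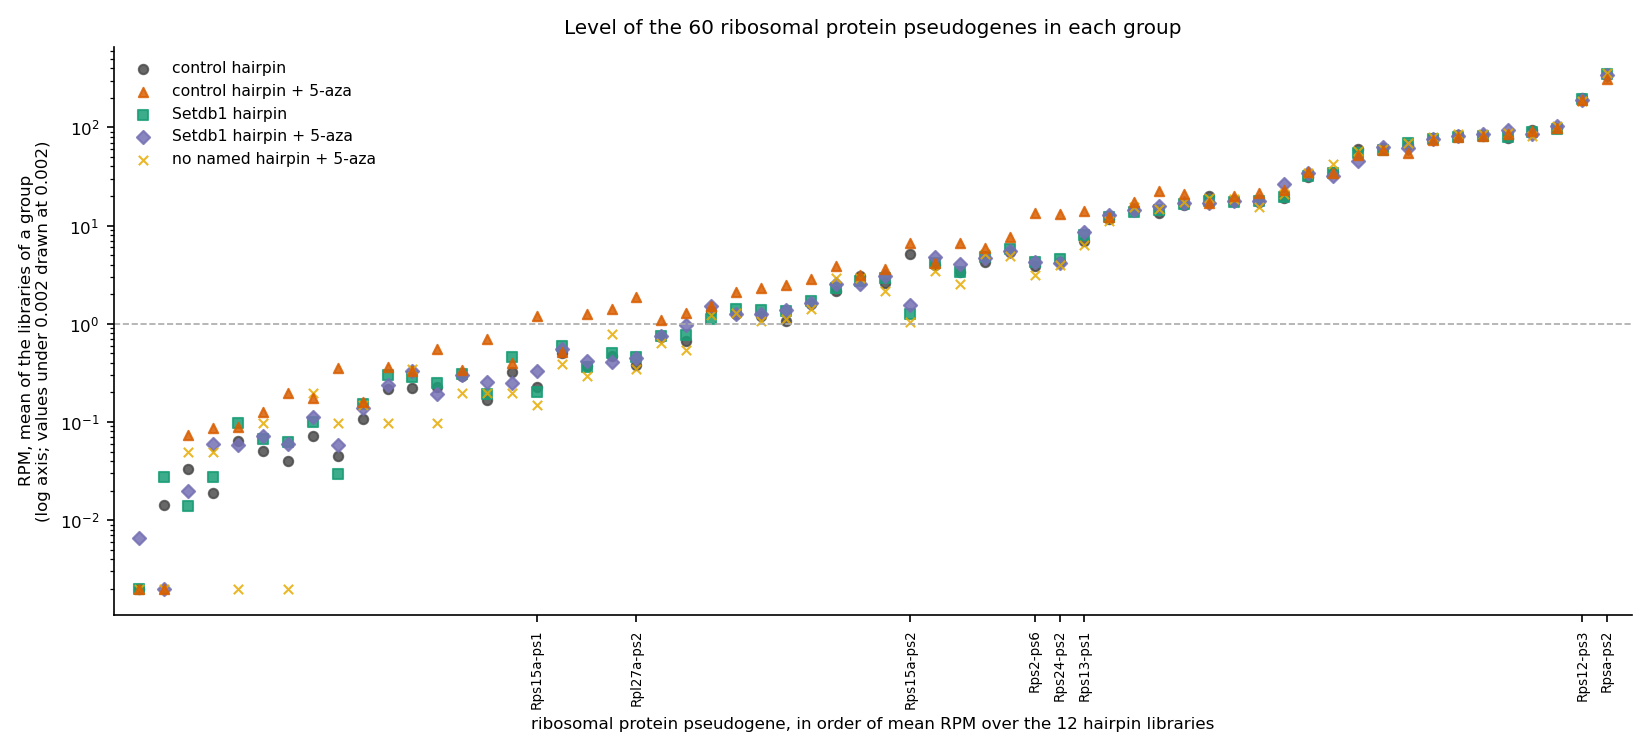
Mean RPM of each of the 60 ribosomal protein pseudogenes in each group of 3 libraries and in the single library without a named hairpin (vertical log axis; genes in order of mean level, with 8 of them named). The triangles for control hairpin cells with 5-aza stand above the other symbols over much of the lower range, up to about Rps13-ps1, and lie among them for the highest genes. The dashed line marks 1 RPM, and the lowest values are drawn at the foot of the axis.

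Several pseudogene rows held higher levels than the rows of the genes they derive from. Per kilobase, 20 of the 60 lay above the parent whether the parent's length was taken from the best aligned transcript or from all its exons merged. That count depends on these lengths, both of which can far exceed the pseudogene's. Rps15a-ps2, of 393 bases, was counted against 5179 and 6270 bases for Rps15a, and Rpl21-ps4, of 438 bases, against 1856 and 3400 for Rpl21. In RPM each of these 2 lay above its parent in 0 of the 12 hairpin libraries. Rpsa-ps2 averaged 382 RPM per kilobase against 8.20 for Rpsa by transcript length. Rpl31-ps8, identical to the Rpl31 transcript over its whole length, averaged 261 RPM per kilobase against 14.1 for Rpl31. Rps12-ps3, also identical to its parent, averaged 392 against 321, and by merged exon length against 92.6. For Rpl31-ps8 and Rps12-ps3, 100% of the 100-base stretches also occur in the parent. A read inside them cannot be told from one of the parent, so these levels depend on how such reads were assigned, which is not known. In plain RPM, 15 pseudogenes exceeded the parent in all 12 hairpin libraries. The summed RPM of the 60 pseudogenes as a percentage of the summed RPM of the 32 parents was 47.8 ± 0.162% in control hairpin libraries, 50.2 ± 0.293% with 5-aza, 49.2 ± 0.973% in Setdb1 hairpin libraries and 50.8 ± 0.620% with 5-aza (mean ± SD, n = 3 each), and 46.9% in the library without a named hairpin. Rpsa-ps2 alone decided much of that share. Without it the group means were 36.8%, 39.9%, 37.6% and 39.1%, in the same order.

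The response of control hairpin cells to 5-aza was the main feature of these genes. Many low pseudogenes were higher in all 3 treated libraries. Of the 21 with a mean of 10 RPM or more, 4 rose and 2 fell. Of the 42 that passed the filter, 22 rose and 2 fell (limma, adjusted p under 0.05), together 24, where 18.8% of all 13134 genes tested changed in either direction and 5.34% fell. Over all 60, without the filter, 26 rose and 1 fell, against 9.23% and 3.24% of 19319 genes, and the median log2 fold change was 0.48 against 0.06 for all genes. Leaving out any 1 of the 3 treated libraries gave between 17 and 19 calls in place of 24, in part because the 4 pseudogenes that passed through this group were then no longer tested. Summed marker levels also stood apart between these groups. Epithelial markers were at 25.8 to 29.2 RPM without and 38.1 to 50.9 RPM with 5-aza, muscle markers at 15.4 to 18.5 RPM and 27.5 to 33.7 RPM, endothelial markers at 7.05 to 8.20 RPM and 4.22 to 6.28 RPM, and macrophage markers at 10.2 to 11.2 RPM and 13 to 15.3 RPM. Their part in the result was not tested.

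Rps24-ps2, an intron-less copy of Rps24, was read at 3.85, 4.45 and 4.4 RPM in the control hairpin libraries (replicates 1, A and B) and at 13.9, 12.2 and 13.6 RPM with 5-aza. It stood at 5.15, 3.93 and 4.64 RPM with Setdb1 hairpins and at 4.74, 3.6 and 4.02 RPM with Setdb1 hairpins and 5-aza. The 3 control libraries with 5-aza were thus alone at the top, with no overlap, and the log2 fold change was 1.64 ± 0.12 (SE; limma, adjusted p = 7.3e-06). Its parent Rps24, a small-subunit protein gene, fell slightly, from 345, 381 and 353 RPM to 327, 303 and 329 RPM, a log2 change of -0.17 ± 0.05 (limma, adjusted p = 0.0317). As a share of the parent's RPM the pseudogene went from 1.18% to 4.13%.

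Rps2-ps6 had the same form. It was read at 3.72, 3.75 and 4.10 RPM without and at 13.3, 13 and 14 RPM with 5-aza in control hairpin cells. With Setdb1 hairpins it was read at 4.44, 3.58 and 4.62 RPM, and with 5-aza besides at 4.12, 4.18 and 4.46 RPM. The rise in control hairpin cells was 1.80 ± 0.09 on the log2 scale (limma, adjusted p = 4.14e-07). The parent Rps2, also a small-subunit gene, was at 195, 197 and 187 RPM without and 180, 171 and 183 RPM with 5-aza, and did not pass the test (log2 fold change -0.12 ± 0.04, limma, adjusted p = 0.0642).

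The 3 other largest rises were in pseudogenes of very low level. Rps15a-ps1 was read at 0.191, 0.247 and 0.237 RPM (9, 14 and 11 reads) without and at 1.16, 1.27 and 1.17 RPM (56, 59 and 63 reads) with 5-aza, a log2 fold change of 2.42 ± 0.21 (limma, adjusted p = 2.88e-05). Rpl27a-ps2, a copy of a large-subunit gene, went from 0.361, 0.318 and 0.475 RPM to 1.76, 1.61 and 2.20 RPM, a log2 fold change of 2.28 ± 0.24 (limma, adjusted p = 0.000106). Rpl26-ps2, which lies in an intron of Ttc6 on the opposite strand, went from 0.340, 0.407 and 0.367 RPM to 1.51, 1.05 and 1.19 RPM, a log2 fold change of 1.74 ± 0.19 (limma, adjusted p = 0.000171). In none of the 3 did the groups overlap. However, each reached 1 RPM in the control hairpin libraries with 5-aza and in no other hairpin library. They were thus tested only through the group in which they were high. Their parents behaved unalike: Rpl27a rose by 0.24 ± 0.06 on the log2 scale (limma, adjusted p = 0.0135), whereas Rps15a and Rpl26 did not pass the test (adjusted p = 0.88 and 0.214).

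The falls were small and both were copies of Rpsa. Rpsa-ps10 went from 65.2, 68.7 and 65.1 RPM to 57.1, 52.5 and 54.5 RPM, a log2 change of -0.28 ± 0.05 (limma, adjusted p = 0.00334). Rpsa-ps2 went from 338, 356 and 341 RPM to 327, 283 and 312 RPM, a log2 change of -0.17 ± 0.05 (limma, adjusted p = 0.0383), a call that was lost in the fit without the filter. The parent Rpsa rose over the same libraries, from 12.8, 13.1 and 12.8 RPM to 20.8, 18.8 and 20.7 RPM, by 0.64 ± 0.07 on the log2 scale (limma, adjusted p = 0.00012). The 2 copies share long stretches with Rpsa, 99.3% (Rpsa-ps10) and 99% (Rpsa-ps2) of the aligned bases being identical, so reads of the 3 rows are hard to keep apart.

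**Figure D2:**
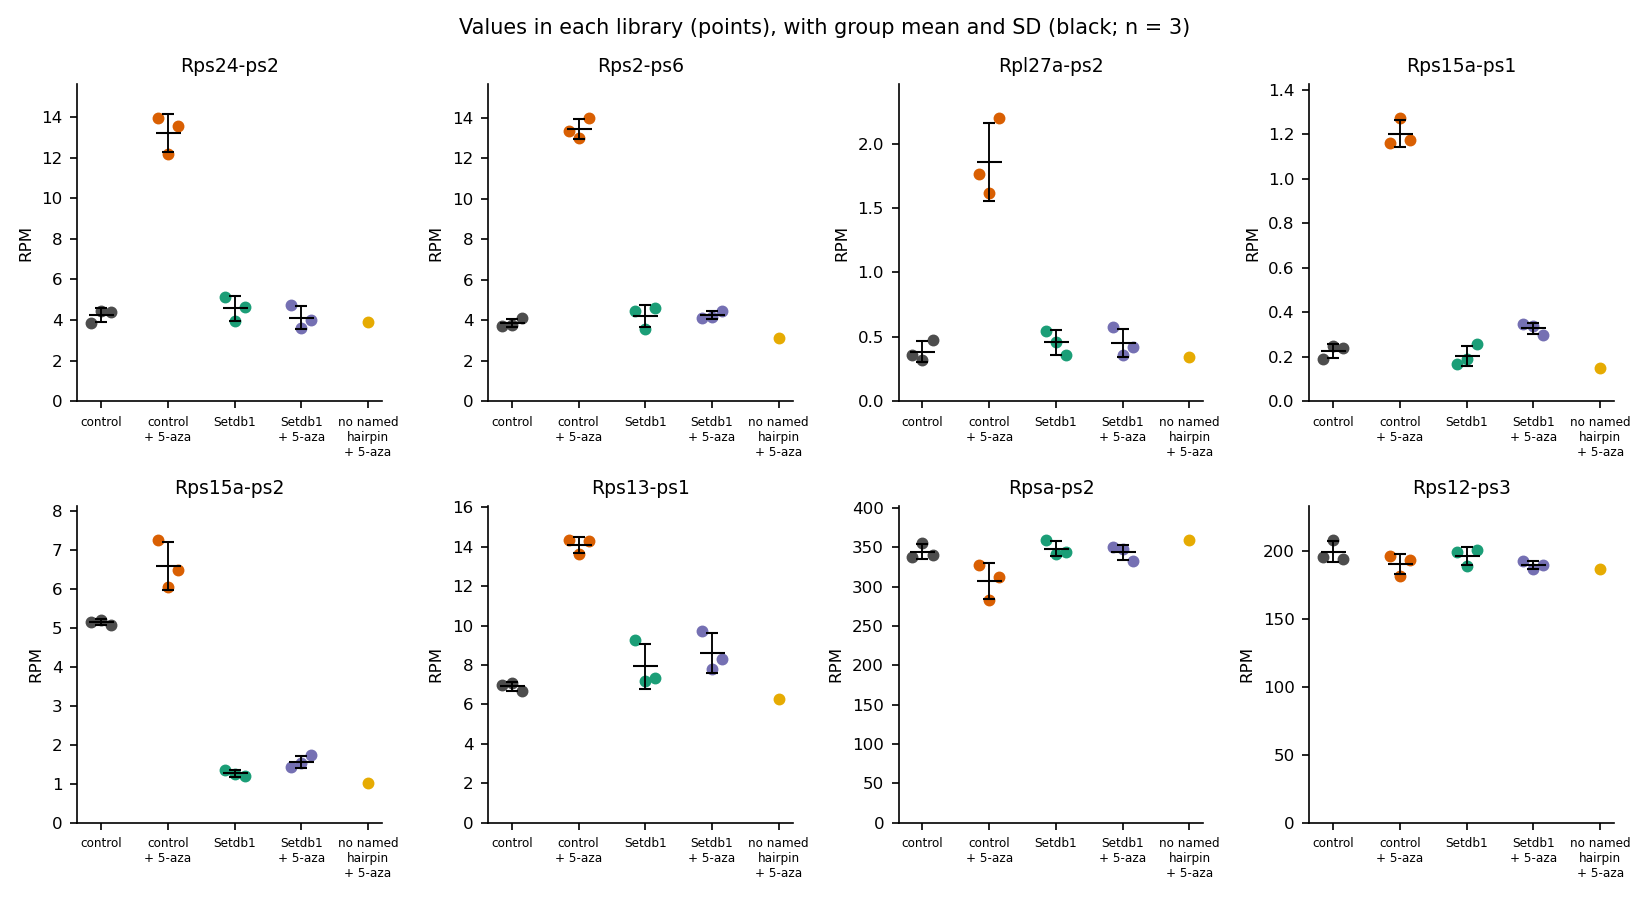
RPM of 8 named pseudogenes in each of the 13 libraries (points), with the mean and SD of each group of 3 (black); every vertical axis starts at 0. Rps24-ps2, Rps2-ps6, Rpl27a-ps2, Rps15a-ps1 and Rps13-ps1 are set apart in the control hairpin libraries with 5-aza alone, Rps15a-ps2 is low with Setdb1 hairpins, and Rpsa-ps2 and Rps12-ps3 differ little.

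The other 17 rises lay between 0.25 and 1.58 on the log2 scale, from Rps26-ps1 to Rpl21-ps5. Among the 4 highest pseudogenes only Rpsa-ps2 passed the test. Rps12-ps3 was read at 195, 208 and 194 RPM without and at 196, 181 and 193 RPM with 5-aza. Rpl31-ps8 was read at 98.2, 101 and 94.4 RPM and at 102, 94.0 and 99.2 RPM. In Rpl36a-ps1 the values were 96.2, 98.6 and 86.5 RPM and 92.6, 88.2 and 95.3 RPM. In all 3 of these the groups overlapped. Summed, the 39 pseudogenes with a mean under 10 RPM came to 55.0 to 58.5 RPM in control hairpin libraries and 101 to 111 RPM with 5-aza, and the 21 with a mean of 10 RPM or more to 1404 to 1490 RPM and 1318 to 1456 RPM. Of these 21, 4 were called higher with 5-aza. Rps10-ps1, a copy of a small-subunit gene, was one of those called, at 14, 13.3 and 13.4 RPM without and 24.2, 22.4 and 20.9 RPM with 5-aza. Across all 60 pseudogenes, without the filter, Spearman's rho between the log2 fold change and the log2 mean RPM over the 12 hairpin libraries was -0.60. Between the log2 fold change and identity to the parent it was -0.32 over the 59 aligned. Both are descriptions across genes measured in the same libraries, and the fold change and the mean RPM share 6 of them.

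**Figure D3:**
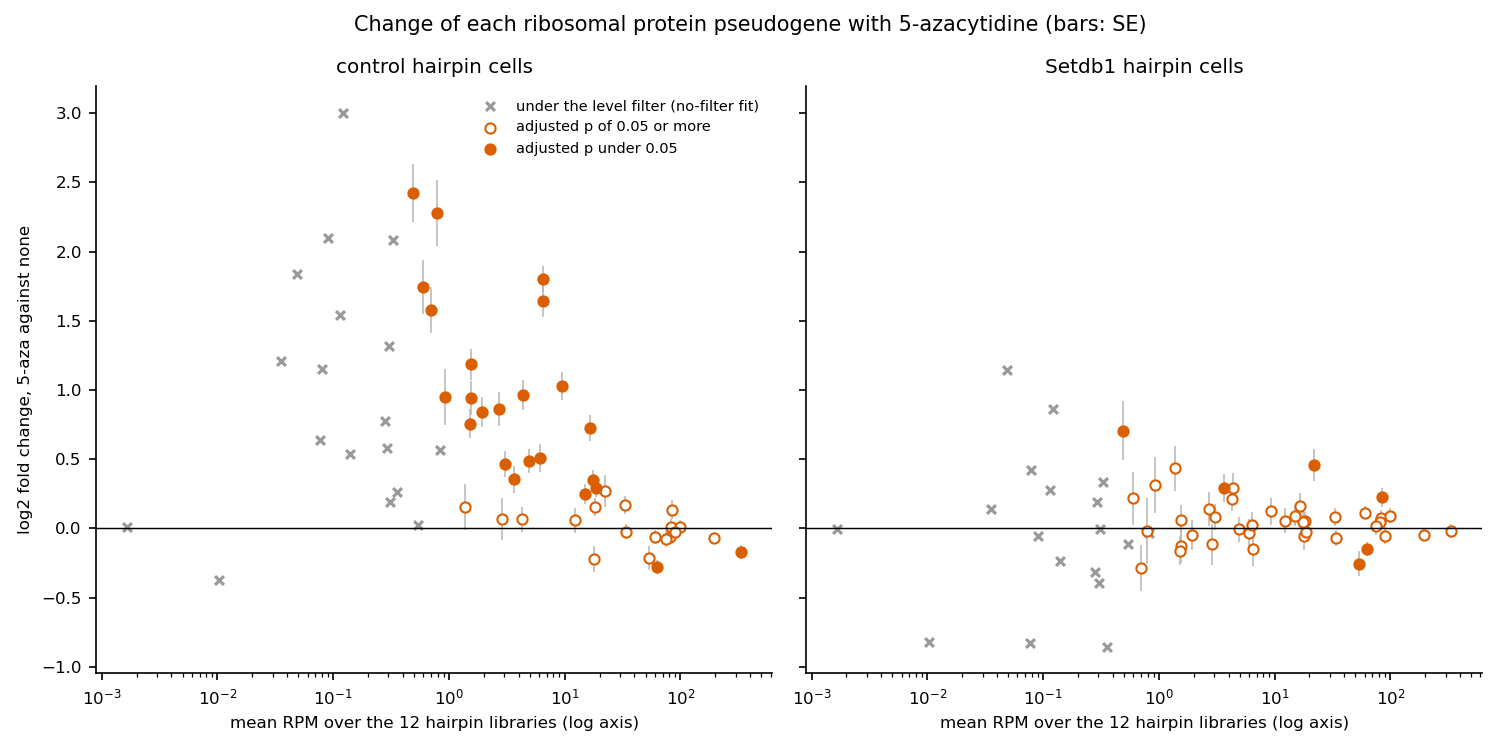
Log2 fold change with 5-aza (vertical axis; bars, SE) of each pseudogene against its mean RPM over the 12 hairpin libraries (horizontal log axis), in control hairpin cells (left) and Setdb1 hairpin cells (right). Filled points passed the test, open points did not, and crosses are the 18 pseudogenes under the level filter, from a fit without it; on the left most points below 10 RPM lie above 0, with Rps15a-ps1 at 2.42.

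In Setdb1 hairpin cells, 5-aza moved few of these genes. Of the 42, 4 rose and 2 fell, while 21.4% of all genes tested rose and 7.51% fell in this comparison. That fit did not pair the samples by replicate number. With the replicate number as a block, 6 of the 42 rose and 2 fell, where 3714 of 13134 genes rose and 1562 fell. Over all 60 without the filter, 3 rose and 1 fell, against 14.5% and 4.67% of all genes. The largest rise was that of Rps15a-ps1, from 0.167, 0.189 and 0.255 RPM (7, 9 and 15 reads) to 0.345, 0.340 and 0.299 RPM, a log2 fold change of 0.71 ± 0.21 (limma, adjusted p = 0.0274), a call kept in 4 of 9 fits without 1 library. Rpl9-ps6, listed as protein-coding and 99.9% identical to the large-subunit gene Rpl9, went from 22.5, 18.4 and 17.5 RPM to 31.1, 22.6 and 26.5 RPM, by 0.46 ± 0.11 (limma, adjusted p = 0.0129). Its parent Rpl9 gave 3.22, 2.74 and 2.67 RPM and 2.99, 3.20 and 3.23 RPM, and did not pass the test (limma, adjusted p = 0.445).

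Other calls of this comparison were small. Rps15a-ps2 went from 1.36, 1.26 and 1.19 RPM to 1.42, 1.52 and 1.73 RPM, with no overlap and a log2 fold change of 0.29 ± 0.10 (limma, adjusted p = 0.0457). With the replicate number as a block, which these groups allow, its adjusted p was 0.0551. The call was kept in 1 of the 7 alternatives run and in 4 of the 12 fits without 1 library. Rpl21-ps3 fell from 50.7, 52.7 and 61.9 RPM to 43.6, 48.4 and 45.9 RPM and Rpsa-ps10 from 71.4, 65.6 and 69.1 RPM to 64.9, 62.8 and 58.4 RPM. Their log2 changes were -0.26 ± 0.09 and -0.15 ± 0.05 (limma, adjusted p = 0.0488 and 0.0457). The count rested on single libraries, since leaving 1 out gave between 1 call (without Setdb1 with 5-aza replicate B) and 8 calls (without Setdb1 replicate 1), with 2 or 3 calls without control replicate A or B, control with 5-aza replicate B, Setdb1 replicate A or B, or Setdb1 with 5-aza replicate 1, and neither fall was called without the level filter.

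Setdb1 hairpins in cells without 5-aza left these genes nearly where they were: 1 of the 42 fell and 0 rose, while 9.01% of all genes tested rose and 3.4% fell. At an unadjusted p under 0.05 the counts were 1 rise and 1 fall, and limma with voom weights also called 1 fall. Over all 60 without the filter the same single fall was called, against 5.73% of all genes rising and 2.05% falling. The gene was Rps15a-ps2. It was read at 5.14, 5.21 and 5.07 RPM with control hairpins and at 1.36, 1.26 and 1.19 RPM with Setdb1 hairpins, so the groups were far apart, and the log2 change was -2.02 ± 0.10 (limma, adjusted p = 2e-07). Its parent Rps15a, which encodes a small-subunit protein, was read at 35.3, 37.8 and 37.4 RPM and at 42.0, 37.9 and 35.1 RPM, with overlapping groups (limma, adjusted p = 0.73). The other copy of the same parent, Rps15a-ps1, gave 0.191 to 0.247 RPM and 0.167 to 0.255 RPM and was not called either (limma, adjusted p = 0.676).

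Rps15a-ps2 was the pseudogene that went with the hairpin irrespective of 5-aza. With 5-aza it was read at 7.26, 6.05 and 6.48 RPM in control hairpin libraries and at 1.42, 1.52 and 1.73 RPM in Setdb1 hairpin libraries, a log2 difference of -2.08 ± 0.10 (limma, adjusted p = 2.55e-07). The comparisons with and without 5-aza share no library, and the test of their difference gave -0.06 ± 0.14 (limma, adjusted p = 0.908). In the library without a named hairpin, in which Setdb1 was at 47.0 RPM, Rps15a-ps2 stood at 1.03 RPM, below all control hairpin libraries and below the Setdb1 hairpin libraries. Both hairpins gave low values, 1.36 RPM with shSetdb1.6 and 1.26 and 1.19 RPM with shSetdb1.4. Whether strain, genotype or hairpin goes with this value cannot be told apart here.

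Among the parents, 3 were called with Setdb1 hairpins in cells without 5-aza. Rps2 was lower, at 116, 105 and 110 RPM against 195, 197 and 187 RPM (log2 change -0.81 ± 0.04, limma, adjusted p = 2.7e-07), and at 205 RPM in the library without a named hairpin. Rpl30, a large-subunit gene, was higher, at 37.3, 33.7 and 34.4 RPM against 19.7, 19.6 and 18.4 RPM (limma, adjusted p = 5.89e-06), and at 36.5 RPM in that library. Rpsa was higher by 0.28 ± 0.07 on the log2 scale (limma, adjusted p = 0.0198). Their pseudogenes Rps2-ps6, Rpl30-ps8, Rpsa-ps2 and Rpsa-ps10 were not called.

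**Figure D4:**
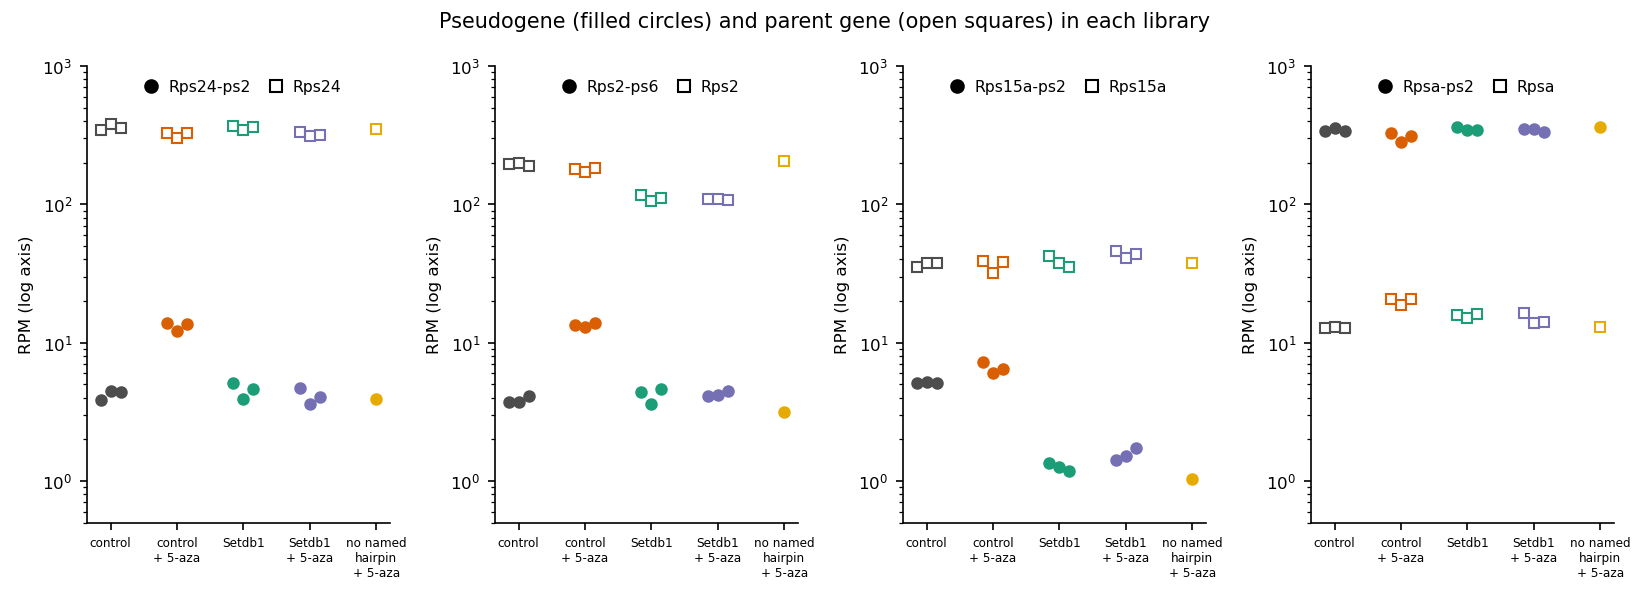
RPM of 4 pseudogenes (filled circles) and their parents (open squares) in each of the 13 libraries, on a log axis. Rps24-ps2 and Rps2-ps6 are high in control hairpin libraries with 5-aza, where the parents do not exceed the control hairpin libraries without 5-aza. Rps2 itself is lower with Setdb1 hairpins. Rps15a-ps2 is low with Setdb1 hairpins and in the library without a named hairpin at a nearly level parent, and Rpsa-ps2 lies above Rpsa throughout.

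With 5-aza in both arms, Setdb1 hairpin cells had less of many pseudogenes than control hairpin cells. Of the 42, 20 were lower and 2 higher, while 5.37% of all genes tested were lower and 14.5% higher. Over all 60 without the filter, 24 were lower and 1 higher, against 3.71% and 9.71% of all genes, and the median log2 difference was -0.34 against 0.04 for all genes. This comparison uses the same 3 control hairpin libraries with 5-aza as the response to 5-aza described above, so the 2 sets of calls are not independent. Rpl27a-ps2 was at 1.76, 1.61 and 2.20 RPM against 0.575, 0.360 and 0.418 RPM, a log2 difference of -2.06 ± 0.24 (limma, adjusted p = 0.000186).

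Beside Rps15a-ps2 and Rpl27a-ps2, the largest differences without overlap were in Rps15a-ps1, Rpl21-ps5 and Rps24-ps2. Rps15a-ps1 was at 1.16, 1.27 and 1.17 RPM against 0.345, 0.340 and 0.299 RPM (-1.87 ± 0.21, limma, adjusted p = 0.000154). Rpl21-ps5 was at 1.37, 1.33 and 1.51 RPM against 0.403, 0.380 and 0.438 RPM (-1.79 ± 0.16, limma, adjusted p = 2.95e-05), with Rpl21, a large-subunit gene, at 7.26, 6.70 and 6.70 RPM against 6.65, 6.34 and 6.57 RPM. Rps24-ps2 differed by -1.69 ± 0.12 (limma, adjusted p = 3.22e-06) while Rps24 did not pass the test (adjusted p = 0.995). Of these pseudogenes, Rpl27a-ps2, Rps15a-ps1 and Rpl21-ps5 were tested only through the control hairpin libraries with 5-aza, where they were high. The 2 higher ones were Rpsa-ps10, by 0.18 ± 0.05, and Rpsa-ps2, by 0.17 ± 0.05 (limma, adjusted p = 0.0267 and 0.0396). With each library centred on its median gene, neither was called (limma, adjusted p = 0.0833 and 0.127). Leaving out control hairpin with 5-aza replicate B reduced the count from 22 to 12, where 4 of the 22 were no longer tested.

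The interaction term, the response to 5-aza with Setdb1 hairpins minus that with control hairpins, tested the contrast between the 2 kinds of cells directly. Of the 42, 11 were lower and 0 higher, against 0.388% and 0% of all genes tested. At an unadjusted p under 0.05 there were 20 lower and 1 higher, and limma with voom weights called 11 lower and 0 higher. Over all 60 without the filter, 9 were lower and 0 higher, against 0.269% and 0.0518% of all genes. Of the 18 under the filter, 0 were called. Rpl27a-ps2 had the largest value, -2.30 ± 0.34 (limma, adjusted p = 0.00944). Rpl21-ps5 followed with -1.86 ± 0.23 and Rps24-ps2 with -1.79 ± 0.17 (limma, adjusted p = 0.00281 and 0.000285), then Rps2-ps6 with -1.78 ± 0.13 and Rps15a-ps1 with -1.72 ± 0.30 (limma, adjusted p = 4.31e-05 and 0.0275). Of these, Rpl27a-ps2, Rpl21-ps5 and Rps15a-ps1 were tested only through the control hairpin libraries with 5-aza, where they were high. The call of Rps15a-ps1 was kept in 1 of 9 fits without 1 library, the one without Setdb1 replicate 1, and that of Rps2-ps6 in 12 of 12. The number fell to between 4 and 8 when 1 library was left out, with 4 calls without control with 5-aza replicate 1 or B, 5 without control with 5-aza replicate A, control replicate B or Setdb1 with 5-aza replicate B, 6 without control replicate 1, and 7 without Setdb1 with 5-aza replicate 1 or A. Of the 32 parents, Rps6 (-1.13), Rps13 (-0.95) and Rpsa (-0.73), all small-subunit genes, were called, all lower.

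The group that stood apart was thus the control hairpin libraries with 5-aza. In 26 of the 60 pseudogenes all 3 of these libraries lay above the 9 other hairpin libraries, and in 2, Rpsa-ps2 and Rpsa-ps10, below. Of the 42 that passed the filter, 20 lay above and 2 below. Among the 13134 genes tested, which passed the same filter, 4.12% lay above and 5.65% below. For the other groups, the 3 libraries lay above the rest in 0 (control hairpins), 0 (Setdb1 hairpins) and 1 (Setdb1 hairpins with 5-aza) of the 60, against 1.48%, 4.23% and 8.22% of all genes. They lay below in 2, 2 and 1, against 5.89%, 4.33% and 1.83%. Among the 42 that passed the filter, they lay above in 0, 0 and 1 and below in 2, 2 and 0. Among the parents, of which 8 of 32 rose and 3 fell with 5-aza in control hairpin cells, 5 had these 3 libraries above all others: Rps13, Rps6, Rpsa, Rps10 and Rpl12, the last of which encodes a large-subunit protein. Rps6 went from 5.74, 6.13 and 6.0 RPM to 12.4, 11.2 and 12.4 RPM in control hairpin cells, and was at 6.52, 6.54 and 6.31 RPM with Setdb1 hairpins and 5-aza. Rps13 went from 3.25, 3.78 and 3.43 RPM to 7.65, 7.04 and 6.96 RPM, and its pseudogene Rps13-ps1 from 6.99, 7.09 and 6.67 RPM to 14.3, 13.6 and 14.3 RPM. The 2 rows rose by about the same amount, 1.05 and 1.03 on the log2 scale, and the pseudogene is 99.6% identical to its parent.

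The library without a named hairpin had also been given 5-aza, and did not share those high values. Rps24-ps2 was at 3.92 RPM there, Rps2-ps6 at 3.14 RPM, Rpl27a-ps2 at 0.343 RPM, Rps15a-ps1 at 0.147 RPM (3 reads) and Rps13-ps1 at 6.28 RPM. Of the 60 pseudogenes, 39 lay below the range of the 3 control hairpin libraries with 5-aza, 12 within it and 9 above it. Of the 42 that passed the filter, 28 lay below, 5 within and 9 above. For all 13134 genes tested, which passed the same filter, these shares were 38.1%, 24.3% and 37.6%. Against the control hairpin libraries without 5-aza, 23 of the 60 lay below, 14 within and 23 above. This is a single library of lower depth and has no replicate check. It may differ in strain, and its macrophage markers summed to 113 RPM, against 10.1 to 15.3 RPM in the hairpin libraries. The pseudogenes named in this paragraph were taken up because they were high in the control hairpin libraries with 5-aza, which favours lower values elsewhere.

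Other processed pseudogenes and other genes of like level were compared next. In the fit without the filter, 25.1% of the 435 processed pseudogenes of the annotation that are not in this group rose with 5-aza in control hairpin cells, against 43.3% of the 60 ribosomal protein pseudogenes and 9.23% of all genes. Between 1 and 10 RPM the shares were 28.5% of 130, 81.2% of 16 and 12.1% of 4006. Between 0.1 and 1 RPM they were 37.6% of 101, 50% of 16 and 8.74% of 2676. At 10 RPM and over they were 15.4% of 136, 14.3% of 21 and 10.9% of 8886. This grouping by level and annotation was chosen after the values were seen. Olfactory receptor genes, 1110 rows, summed to 2.60 to 3.44 RPM over the 12 hairpin libraries, with 2.82 to 3.44 RPM in the control hairpin libraries with 5-aza. The share of reads that fell in genes was 86.9 to 87.8% in the hairpin libraries. Pseudogenes with a mean under 10 RPM summed to 55.0 to 58.5 RPM without and 101 to 111 RPM with 5-aza in control hairpin cells. A change of that size is too small to show in such a share. Any link of these values to the pseudogene reads was not tested.

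**Figure D5:**
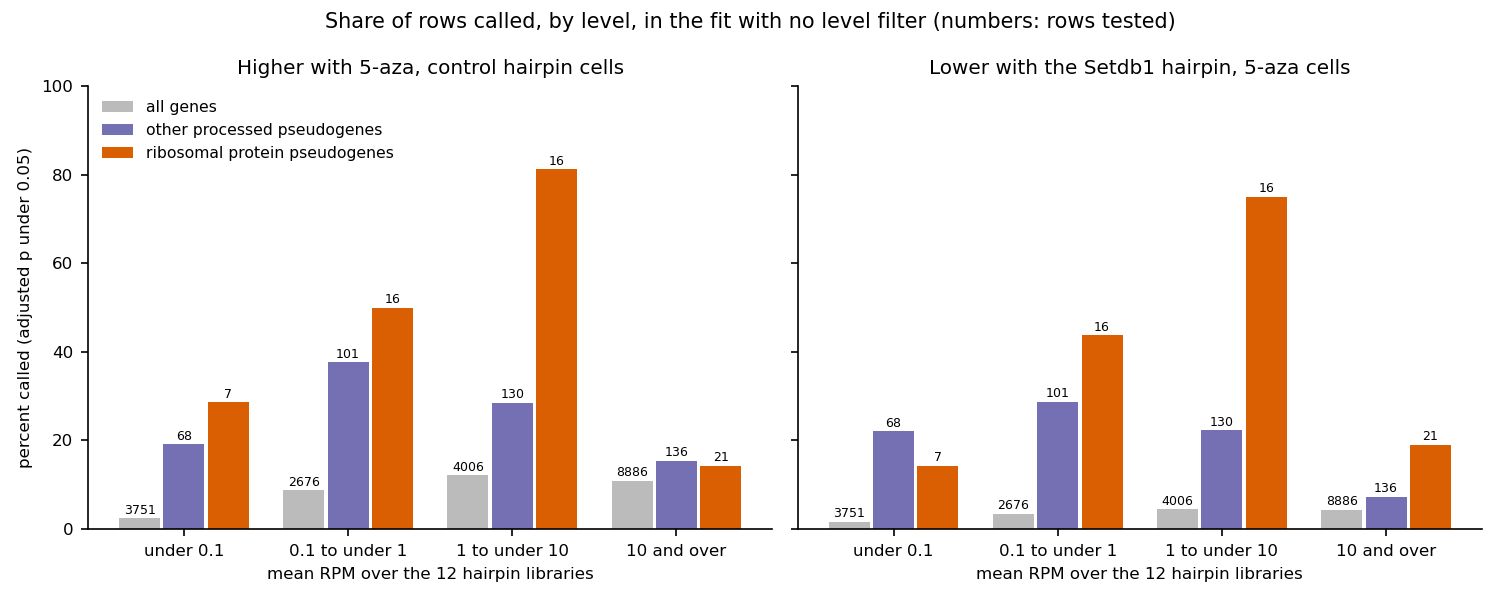
Percent of rows called higher with 5-aza in control hairpin cells (left) and lower with Setdb1 hairpins in 5-aza cells (right), by mean RPM, in the fit without a level filter, for all genes, other processed pseudogenes and ribosomal protein pseudogenes. The number of rows tested is above each bar; between 1 and 10 RPM the 3 sets reach 12.1%, 28.5% and 81.2% on the left.

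Functional ribosomal protein genes and the wider machinery were counted as well. Of 79 ribosomal protein genes, 15 rose and 3 fell with 5-aza in control hairpin cells, and 3 rose and 2 fell in Setdb1 hairpin cells, with median log2 fold changes of 0.06 and 0.05 against 0.04 and 0.06 for all genes. Of all 13134 genes tested, 1769 rose and 702 fell in control hairpin cells, and 2805 rose and 987 fell in Setdb1 hairpin cells. With 5-aza, Setdb1 hairpin cells had 12 lower and 2 higher, where 5.37% of all genes were lower, and the interaction called 5 lower and 0 higher, where 0.388% were lower. Of 25 ribosome biogenesis genes, 1 rose and 3 fell with 5-aza in control hairpin cells. The same list had 5 higher with Setdb1 hairpins without 5-aza and 10 higher with it, against 9.01% and 14.5% of all genes, and 0 lower in either. Of the other 73 rows with "-ps" in their symbol, 21 passed the filter, and 6 of them rose and 0 fell with 5-aza in control hairpin cells.

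Pseudogenes of the same parent did not move as 1 block. Rpl21 had the largest family, 11 members, of which 4 passed the filter. Rpl21-ps5 and Rpl21-ps4 rose with 5-aza in control hairpin cells, by 1.58 and 0.84 on the log2 scale, whereas Rpl21-ps3 and Rpl21-ps7 did not. Among its members under the filter, Rpl21-ps1, Rpl21-ps6, Rpl21-ps12 and Rpl21-ps14 were called higher in the fit without it. Rpl31 had 6 members, of which 4 passed, and only Rpl31-ps1 was called (0.35 on the log2 scale). Rpl7a had 4 members, 2 passed and 0 were called. Of the 2 copies of Rpl27a, Rpl27a-ps2 rose by 2.28 while Rpl27a-ps1 changed by 0.01. By likeness to the parent, over the 59 aligned pseudogenes and without the filter, 10 of 16 under 96% identity rose with 5-aza in control hairpin cells, 9 of 17 from 96 to under 98%, and 7 of 26 at 98% and over, against 9.23% of all genes. The last class was also the most abundant, with a median of 15.8 RPM against 0.877 RPM in the first.

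Position was not shared. The 60 pseudogenes lay on 16 chromosomes, with at most 7 on 1 of them. Another annotated gene overlapped 18 of them, mostly with the pseudogene in its intron and on the opposite strand. Where such a gene was measured it could be set beside the pseudogene. Naip1, which holds Rpl31-ps13 in an intron, was higher with Setdb1 hairpins by 2.03 on the log2 scale (limma without the filter, adjusted p = 0.0023), and Rpl31-ps13 was not called. Pdzd8, which holds Rps12-ps3, fell with 5-aza by -0.19 and -0.23 in control and Setdb1 hairpin cells, and Rps12-ps3 was not called. Wwp2, which holds Rps26-ps1, rose with 5-aza in control hairpin cells by 0.27 (limma without the filter, adjusted p = 0.0113), beside 0.25 for Rps26-ps1, which was called. Lars, which holds Rps19-ps4, did not pass the test in the same comparison (-0.096, limma without the filter, adjusted p = 0.264). Rps19-ps4 rose by 1.19 and was called.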

How the data were processed

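RNA from 13 MEF samples was sequenced as 100-base single-end reads. The authors deposited 1 table of log2 values per gene, reads per M reads (RPM) on the log2 scale, with mm10 gene coordinates. The submitters' processing notes name mm10 and CASAVA 1.4. The aligner, counter, annotation version and treatment of reads with several places behind this table are not given in the sources used here. RPM was taken as 2 to the power of the deposited value, and 100% of values under 1000 reads came out as whole reads within a tolerance of 0.1. No deposited expression column was left out.

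The 12 hairpin libraries were fitted together with limma 3.58.1 (R 4.3.3; linear models with contrasts and an intensity trend in the moderated variance), on the log2 RPM of genes at 1 RPM or more in 3 or more libraries. Benjamini-Hochberg adjustment ran over all genes tested, and an adjusted p under 0.05 was called. The fit was tested on simulated data. Values are mean ± SD for levels and ± SE for log2 fold changes. Named pseudogenes were the called ones with the 5 largest rises and the 5 largest falls of each comparison whose groups did not overlap (no such condition for the interaction), with their parents, and the 5 of highest mean level. Others were named after their values were seen. A pseudogene that this rule would name is not reported here. Alternatives were another centring, a pseudocount of 1, no filter, a minimum of 5 RPM, the replicate number as a block, only the groups compared, voom weights, and each library left out in turn. The members and gene lists were chosen with earlier results of these data known, and the classes by level, identity and annotation after the values were seen. Whether replicate numbers pair the samples was checked from deviations from the group means. Between Setdb1 hairpin cells with and without 5-aza the correlations of same-numbered samples were 0.472, 0.634 and 0.413, so those samples were taken as paired. The main fit and its p-values did not use this pairing. It entered only the alternative with the replicate number as a block. Annotation and sequences came from GENCODE M21, aligned with biopython 1.88 and edlib.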

Additional observations from a re-analysis of the deposited data

Results flagged for a closer look

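The response to 5-aza differed between Setdb1 and control hairpin cells in 11 ribosomal protein pseudogenes, by the interaction term of the fit across all genes (limma, adjusted p under 0.05). In each the value, the log2 response with Setdb1 hairpins minus that with control hairpins, was negative. It was -2.30 for Rpl27a-ps2, -1.86 for Rpl21-ps5, -1.79 for Rps24-ps2, -1.78 for Rps2-ps6 and -1.72 for Rps15a-ps1. It was -1.53 for Rpl26-ps2, -1.13 for Rps19-ps4, -1.07 for Rpl23a-ps1, -0.92 for Rpl27-ps1, -0.90 for Rps13-ps1 and -0.89 for Rpl21-ps4. Rpl27a-ps2, Rpl21-ps5, Rps15a-ps1 and Rpl26-ps2 were tested only because they reached 1 RPM in the control hairpin libraries with 5-aza. The call of Rps15a-ps1 was kept in 1 of 9 fits without 1 library.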

How the results depend on the processing

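The fall of Rps15a-ps2 with Setdb1 hairpins was called under every alternative run. For 5-aza in control hairpin cells, 24 calls became 13 with a minimum of 5 RPM and 17 to 25 with 1 library left out. For Setdb1 against control hairpins with 5-aza, 22 became 13 with a minimum of 5 RPM and 12 to 22 with 1 library left out. For 5-aza in Setdb1 hairpin cells, 6 became 2 when only these groups were fitted and 1 to 8 with 1 library left out. For the interaction, 11 became 3 with a minimum of 5 RPM and 4 to 8 with 1 library left out. The higher minimum removed low pseudogenes from the test, 9 of the 22 calls and 8 of the 11. Over 25 values of named pseudogenes and 430 alternatives, 358 kept the call, 72 lost it and 0 changed direction. With the replicate number as a block, the counts were 25, 22, 8 and 14, in the same order, and among the named values the block ended 1 call, that of Rps15a-ps2 with 5-aza in Setdb1 hairpin cells, which most other alternatives also ended. In the other comparisons not every same-numbered pair correlated over 0.1, so those samples were taken to share only a number, and not every sample correlated best with its own.

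The summed level of the pseudogenes as a percentage of that of their parents became 50.1%, 52.8%, 51.7% and 53.7% (control, control with 5-aza, Setdb1, Setdb1 with 5-aza) and 49.4% (no named hairpin) with tested pseudogenes only. Without Rpsa-ps2 it became 36.8%, 39.9%, 37.6%, 39.1% and 35.8%. With 50-base in place of 100-base stretches, 3 and not 23 pseudogenes had none in the parent. Depth limits the lowest rows: Rpl29-ps3 and Rpl31-ps4 had at most 3 reads in any hairpin library.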
